A study of Mus musculus with 60 samples.

Results

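The comparison described here is between a mouse cell line transfected with wild-type Pabpn1 whose level is labelled high (WTA) and one transfected with the same gene whose level is labelled low (WTD). Its members are the arrays whose titles begin with one or the other of these line names, 24 of the 60 arrays of the series and 6 of its 15 cultures. WTA and WTD were each grown as 3 cultures, and the RNA of each culture was hybridised to 4 spotted 2-colour arrays, once in each dye on each of 2 array parts that hold different probes. The other channel of every array carried 1 common reference of untransfected IM2 cells, the line that the transfected lines are set against. The remaining groups are IM2 itself, with no transgene, and the lines D7E (labelled high) and D7F (labelled low), which carry mutant Pabpn1, again with 3 cultures a line. For 1 array on part I, that of D7F culture 1 with Cy3, the label field describing it reads high where those of the other D7F arrays on part I read low, and its title, which names D7F, was followed. The labels give no drug, dose or time for any group. They do not name the tissue the cells came from, the promoter of the transgene, or whether a line is 1 clone. Each level is represented by 1 line, so the level of Pabpn1 and any other difference between these 2 lines cannot be told apart, and the p-values below measure only the spread between cultures of a line.

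Pabpn1 is the nuclear poly(A)-binding protein. It coats the growing poly(A) tail of a new transcript, stimulates poly(A) polymerase and helps to set the tail's length, and it takes part in the choice of polyadenylation site and in the decay of some nuclear RNAs. An expansion of its short alanine tract causes oculopharyngeal muscular dystrophy, a late disease of eyelid and throat muscle that the series title abbreviates. The comparison of WTA with WTD asks what differs between lines that differ in the labelled amount of the wild-type protein.

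All values are given as the log2 ratio of a culture's RNA to the reference, which takes the deposited logarithms to be of base 10. A culture's value is the mean of its 2 dye orientations, and values at the deposited limits of -2 and 2 were treated as not measured. In all, 9706 probes for 8107 named genes could be tested. On part I the arrays of WTA had 90.5% to 99.9% of their rows filled and those of WTD 91.7% to 99.7%, while part II reached down to 49.9% in WTA and 63.6% in WTD. The spread of the ratios over probes also differed on part I, with a median absolute deviation of 0.70 (median of the WTA arrays) against 0.38 (median of the WTD arrays), and was 0.51 and 0.53 on part II. Over probes, the cultures of WTA correlated with r = 0.397 to 0.669 and those of WTD with r = 0.55 to 0.804. Probes are not independent of each other, so these r carry no p. Precision is limited by how many arrays were made, and since ratios to a reference hold no level, they cannot show whether the markers that define a tissue are present.

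The transcript of the transfected gene was higher in the line labelled high. In WTA the 3 cultures had Pabpn1 log2 ratios of 2.47, 2.22 and 1.89, and in WTD of 1.47, 1.47 and 1.35. The lowest WTA culture lay above the highest WTD culture, and on single arrays the ratio was 1.87 to 2.62 in WTA and 1.34 to 1.58 in WTD, whichever dye carried the culture RNA. The difference was 0.76 on the log2 scale (1.69-fold, SE 0.14, adjusted p = 0.0159; limma with Benjamini-Hochberg adjustment over all tested probes, as for every adjusted p below). The exact 2-sided permutation test of the 3 against 3 cultures gave p = 0.1, the smallest value that its 20 arrangements allow. Both lines lay above IM2, whose mean was -0.18 ± 0.06 (SD, n = 3), against 2.19 ± 0.29 in WTA and 1.43 ± 0.07 in WTD. Ratios were read as culture over reference because Pabpn1 was positive on the WTA and WTD arrays. The position of both lines above IM2 is thus no separate result. The difference between the lines sat on top of this excess that WTA and WTD shared. It did not pass the threshold without WTA culture 1 (0.62, adjusted p = 0.0529), WTD culture 2 (adjusted p = 0.054) or WTD culture 3 (adjusted p = 0.0778). With every array centred and scaled to one spread it took the opposite sign, at -0.29 (adjusted p = 0.621), beside the wider spread of the WTA arrays on part I given above. The labels do not say whether this probe detects the mouse's own transcript, the transfected one or both.

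**Figure D1:**
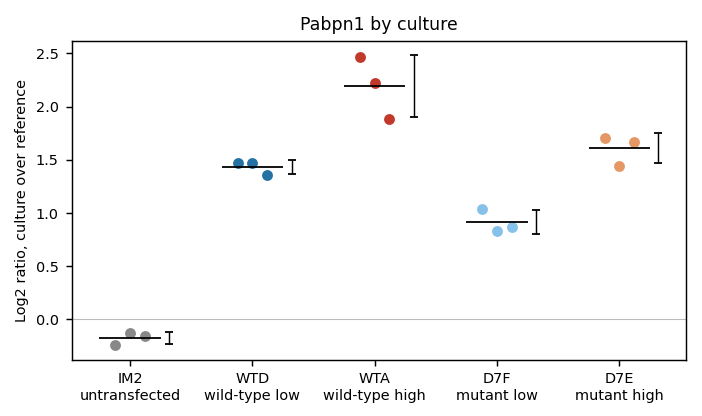
Log2 ratio of Pabpn1 over the common reference (vertical axis) in each culture of the 5 lines (points), with the mean of 3 cultures (horizontal line) and its SD (bar at the right). The WTA cultures lie at 1.89 to 2.47, above the WTD cultures at 1.35 to 1.47, and the IM2 cultures lie below 0.

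Few other probes passed between the lines after adjustment. Of the 9706 probes, 172 passed the threshold of 0.05 for the adjusted p (1.77%), of which 83 were higher in WTA (0.855%) and 89 lower (0.917%), and 1475 had an unadjusted p under 0.05. Centring each array on its median moved this balance to 136 of 200 higher in WTA (68.0% against 48.3%), and centring with scaling to 107 of 162 (66.0%). The 172 probes included 155 named genes, and 77 of them differed at least 2-fold. All 172 had the same sign on the Cy3 and the Cy5 arrays, both of which entered the calls. Over all tested probes 61.6% did (r = 0.222). Of the 172 probes 165 were measured in all 6 cultures, and in all 165 the WTA and WTD cultures did not overlap. The calls were made on these same cultures, so this separation is no further support for them. Of all 7580 tested probes measured in all 6, 23.1% did not overlap (12.8% with WTA higher and 10.3% with WTA lower). The count of probes that passed changed with single cultures: it was 94 without WTA culture 1, 258 without WTA culture 2 and 165 without WTA culture 3. Without WTD culture 1 it was 109, without WTD culture 2 it was 87 and without WTD culture 3 it was 84. It was 5 when only WTA and WTD were fitted, where the spread was estimated from these 6 cultures and 13829 probes could be tested.

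**Figure D2:**
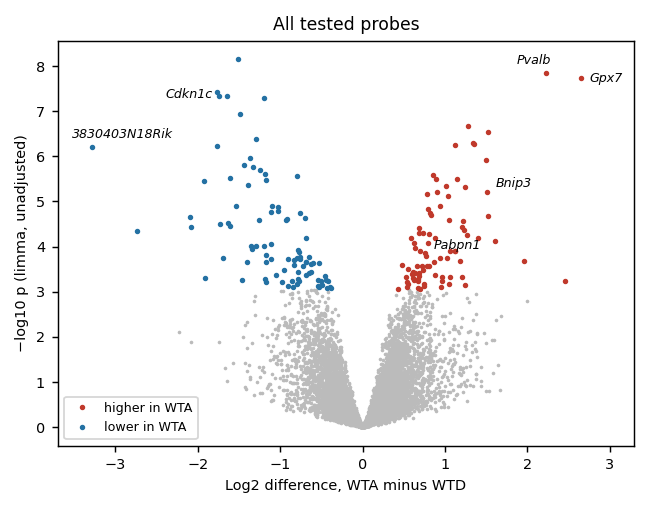
Log2 difference of WTA minus WTD (horizontal axis) and -log10 of the unadjusted limma p (vertical axis) for the 9706 tested probes. The 83 probes past the threshold and higher in WTA are red and the 89 lower are blue, with Gpx7 at 2.65 and 3830403N18Rik at -3.28 as the outermost of those.

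Relative to the common reference, the differences took several forms. For 97 of the 172 probes the mean of one line lay above the reference and that of the other below it, for 30 both means lay above and for 45 both lay below. WTA was the line nearer to the reference for 72 of the 172 (41.9%) and for 3898 of all 9706 tested probes (40.2%). Neither line was nearer to the reference throughout. In bulk RNA, a smaller share of cells that express a gene and a smaller amount of its RNA in each cell cannot be told apart.

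The genes higher in WTA were led by Gpx7, a glutathione peroxidase of the endoplasmic reticulum that passes oxidising equivalents to protein disulfide isomerase. Its log2 ratios were -0.93, -0.66 and -0.59 in WTA and -2.74, -3.92 and -3.47 in WTD. Both lines lay below the reference, WTD far below. The difference was 2.65 (SE 0.23, adjusted p = 5.9e-05), or 6.29-fold. Pvalb, the parvalbumin that buffers calcium in fast muscle fibres, had ratios of 0.56, 0.56 and 0.49 in WTA against -1.55, -1.60 and -1.92 in WTD. WTA lay above the reference in every culture and WTD below it in every culture, a difference of 2.22 (SE 0.17, adjusted p = 5.9e-05) or 4.67-fold. Vamp3, a vesicle fusion protein of recycling endosomes, stood at 1.62, 1.84 and 1.63 in WTA and at -0.32, -0.18 and -0.27 in WTD. WTD was close to the reference here and WTA high, with a difference of 1.95 (SE 0.36, adjusted p = 0.0205) that did not pass without WTA culture 1 or any 1 of the 3 WTD cultures (highest adjusted p = 0.0797).

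Loxl2, a lysyl oxidase that cross-links collagen, had ratios of -0.94, -0.07 and -0.26 in WTA and -1.97, -2.07 and -2.03 in WTD. The WTD cultures were close together and well below the reference, the WTA cultures lay between them and the reference, and the difference was 1.60 (SE 0.29, adjusted p = 0.0103). Tmod4 caps the slow-growing end of muscle thin filaments. Its ratios were 1.69, 1.31 and 1.35 in WTA and -0.03, -0.12 and -0.08 in WTD. Of WTA and WTD only WTA left the reference, by a difference from WTD of 1.53 (SE 0.15, adjusted p = 0.000278). The mutant lines were also above the reference, with means of 1.40 in D7F (labelled low) and 0.83 in D7E (labelled high). Actr1a, the actin-related subunit of the dynactin complex that carries cargo along microtubules, had ratios of 2.02, 1.22 and 1.92 against 0.34, 0.11 and 0.16. It differed by 1.52 (SE 0.23, adjusted p = 0.00428), with the IM2 cultures lower still at a mean of -0.76. Bnip3, a mitophagy receptor in the outer mitochondrial membrane that low oxygen induces, was below the reference in all 6 cultures. It had -0.93, -1.08 and -0.30 in WTA and -2.27, -2.31 and -2.28 in WTD, a difference of 1.52 (SE 0.20, adjusted p = 0.00179) or 2.86-fold.

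The 12 largest rises were chosen among genes whose WTA and WTD cultures did not overlap, so that separation is no result of these genes, nor of the 12 largest falls. The carboxylesterase gene Ces2g differed 2.83-fold (adjusted p = 0.000649), with WTA at 0.18, 0.49 and 0.04 and WTD at -1.60, -1.27 and -0.92. This call did not pass without the arrays that had many missing or limit values (adjusted p = 0.1). Dpt, which encodes the matrix protein dermatopontin, stood at 1.49, 1.30 and 1.71 in WTA and 0.18, 0.03 and 0.09 in WTD, a difference of 1.40 (SE 0.24, adjusted p = 0.00909). Cmya5, the muscle protein myospryn at the Z-disc and costamere, stood at 1.17, 1.02 and 1.05 and -0.40, -0.34 and -0.08, and differed by 1.35 (SE 0.14, adjusted p = 0.000374). Like Tmod4, Dpt and Cmya5 were raised over the reference in WTA and near it in WTD. Fbxo5, which inhibits the anaphase-promoting complex, showed the other form, with WTA at 0.28, -0.03 and 0.25 and WTD at -0.94, -1.39 and -1.20 (difference 1.35, adjusted p = 0.000374). So did Gem, a small GTP-binding protein that restrains voltage-gated calcium channels, at 0.22, 0.12 and 0.41 against -1.12, -1.01 and -0.98 (difference 1.29, adjusted p = 0.000232). For Fbxo5 and Gem the high line stayed near the reference and the low line fell below it.

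The genes lower in WTA were led by 3830403N18Rik, a mouse gene known by its cDNA clone name. Its ratios were -1.31, -1.07 and -0.39 in WTA and 2.08, 1.83 and 3.15 in WTD. The high line lay below the reference and the low line well above it, a difference of -3.28 (SE 0.38, adjusted p = 0.000374), or 9.7-fold higher in WTD. Tcstv1, named for its expression in embryos at the 2-cell stage, was below the reference in both lines. It stood at -3.85, -2.39 and -3.34 in WTA and -0.81, -1.33 and -1.16 in WTD, and differed by -2.09 (SE 0.31, adjusted p = 0.00443). Padi2, which converts arginine in proteins to citrulline, had -1.98, -1.37 and -2.35 in WTA and 0.06, -0.20 and 0.22 in WTD. Of WTA and WTD only WTA left the reference, with a difference of -1.93 (SE 0.24, adjusted p = 0.00121). Tac4 encodes a precursor of tachykinin peptides. Its ratios of -0.52, -0.44 and -0.52 in WTA and 1.25, 1.36 and 1.20 in WTD lay on either side of the reference, and differed by -1.76 (SE 0.18, adjusted p = 0.000374).

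Cdkn1c, the imprinted inhibitor p57 that stops cyclin-dependent kinases as cells leave the cycle, was among the most separate genes. It had ratios of -0.34, -0.38 and -0.18 in WTA and 1.49, 1.36 and 1.49 in WTD. The low line was raised over the reference in every culture and the high line was not, and the difference was -1.75 (SE 0.15, adjusted p = 7.05e-05), or 3.35-fold. It passed under each of the 17 alternative settings tried. Neat1, the long noncoding RNA that scaffolds nuclear paraspeckles, had -0.41, -1.13 and -0.24 in WTA and 0.87, 0.97 and 1.26 in WTD, with a difference of -1.63 (SE 0.27, adjusted p = 0.00538). Pacsin1, which bends membranes during endocytosis, had -0.38, -0.49 and -0.57 and 1.08, 1.02 and 1.00. Its replicates were close together in both lines and its difference was -1.51 (SE 0.11, adjusted p = 5.9e-05).

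The rest of the 12 largest falls were those of Scn10a, Kcnmb4, Dpep1, Prr32 and Xlr. Scn10a, a voltage-gated sodium channel known from sensory neurons, stood at -0.72, -0.76 and -0.81 in WTA and 0.63, 0.84 and 1.08 in WTD, a difference of -1.61 (SE 0.20, adjusted p = 0.00112). Kcnmb4, a regulatory subunit of the large-conductance calcium-activated potassium channel, stood at -0.19, 0.25 and -0.35 and 1.46, 1.11 and 1.96, a difference of -1.61 (SE 0.25, adjusted p = 0.00588). The pore of that channel, Kcnma1, a gene named here after its values were seen, differed by -1.11 but did not pass. Dpep1, a membrane dipeptidase, was low only in WTA (-2.46, -1.39 and -1.63, against -0.24, -0.47 and -0.16 in WTD; difference -1.54, adjusted p = 0.00317). Prr32 was low in WTA (-2.03, -1.80 and -1.60) and less so in WTD (-0.08, -0.51 and -0.37), a difference of -1.49 (adjusted p = 0.000137). Its mean was also low in the mutant line D7F, at -1.61, against -0.33 in D7E. The lymphocyte-regulated gene Xlr had probes that disagreed: the probe with -0.11, -0.11 and -0.34 in WTA and 1.74, 1.46 and 1.42 in WTD differed by -1.73 (SE 0.27, adjusted p = 0.00541), while its other probe differed by 0.20 (adjusted p = 0.817). Xlr belongs to a family of close copies on the X chromosome, so its identity is uncertain. Of these 24 genes, 23 kept their call when any single culture of WTA or WTD was left out, Vamp3 being the exception. Under the other settings Pvalb, Tac4, Cdkn1c and Pacsin1 passed wherever a fit could be made, and the other 20 missed the threshold in at least 1, mostly when WTA and WTD were fitted alone or on the arrays of a single dye. After centring and scaling Tcstv1 (adjusted p = 0.11) and Vamp3 (adjusted p = 0.063) did not pass.

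**Figure D3:**
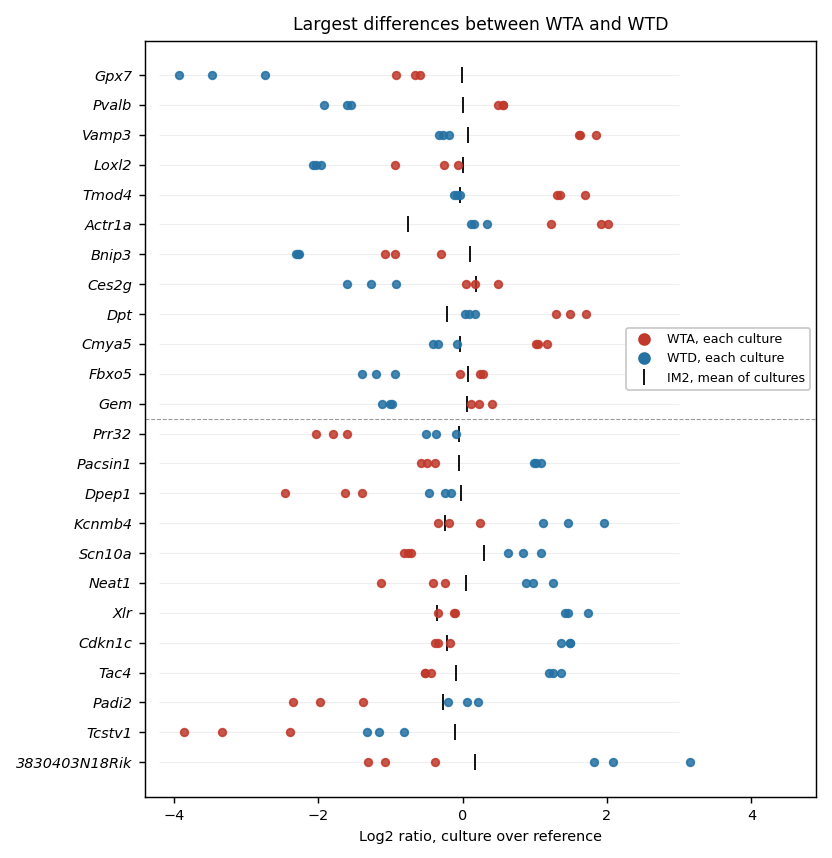
Log2 ratio over the common reference (horizontal axis) in each WTA culture (red) and each WTD culture (blue), with the mean of the IM2 cultures as a black tick, for the 12 genes with the largest rise (above the dashed line) and the 12 with the largest fall in WTA. Red and blue points do not overlap because the genes were chosen so, and rows such as Pvalb and Cdkn1c have the lines on opposite sides of 0.

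The proteins of the sarcomere form the thick and thin filaments of muscle and the Z-discs that anchor them. Of 39 sarcomere genes measured, 3 passed as higher and 1 as lower, beside 74 higher and 77 lower of all 8107 genes (1.86% called). Their median difference was 0.26, against 0.02 over all genes, and 29 of 39 were above 0, as were 4252 of all 8107 genes. The list's median in single cultures was 0.50 to 0.62 in WTA and 0.27 to 0.36 in WTD. Tmod4 led the list. The Z-disc genes Myot and Myoz1, which encode myotilin and a calcineurin-binding protein, were higher by 0.61 (adjusted p = 0.0351) and 0.60 (adjusted p = 0.031). Myoz1 stood at 1.07, 0.87 and 0.89 in WTA and 0.24, 0.42 and 0.38 in WTD, so the muscle gene was above the reference in both lines and more so in the high one. Csrp3, the muscle LIM protein, went the other way, at -0.27, -0.19 and -0.37 in WTA and 0.53, 0.36 and 0.34 in WTD (difference -0.69, adjusted p = 0.00909). The calls of Myot and Myoz1 did not pass without WTA culture 1 or any 1 of the WTD cultures (highest adjusted p = 0.116), nor with the arrays centred and scaled, where the list had 1 higher and 1 lower gene and a median of 0.10. The call of Myot also did not pass without WTA culture 3. Without the arrays with many missing or limit values, neither Myot (adjusted p = 0.162) nor Csrp3 (adjusted p = 0.0854) passed. Of 13 measured genes of the dystrophin complex, which links the cytoskeleton to the matrix, 0 passed (limma). Their median was 0.18, and the largest differences among those measured in all 6 cultures were those of Dtna (0.55, adjusted p = 0.0805) and Sspn (0.41, adjusted p = 0.212).

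Of 25 measured muscle genes of calcium handling and energy supply, 4 were higher in WTA and 0 lower (1.86% of all genes were called), with a median of 0.28 and 21 of 25 above 0. With the arrays centred and scaled 2 were higher and the median was 0.09. After Pvalb these were Pgm1, the phosphoglucomutase that feeds glycogen glucose into glycolysis, at 0.05, -0.03 and 0.69 in WTA and -0.98, -1.10 and -0.84 in WTD (difference 1.21 (SE 0.20, adjusted p = 0.00605)). Slc2a4, the insulin-responsive glucose transporter, was higher by 0.78 (adjusted p = 0.0232), and Fabp3, the fatty acid carrier of heart and muscle, by 0.67 (adjusted p = 0.0472). Pgm1 kept its call without any single culture, whereas Slc2a4 and Fabp3 did not pass without WTA culture 1 or any 1 of the WTD cultures, Fabp3 nor without WTA culture 2 (highest adjusted p = 0.15). After centring and scaling Slc2a4 did not pass (adjusted p = 0.0923) and the difference of Fabp3 was 0.09 (adjusted p = 0.875). Ryr1, the calcium release channel, had 4 probes that disagreed, at 0.27, 0.12, -1.17 (adjusted p = 0.0207) and -1.43, and counts in the list through the second.

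Among myogenic regulators the direction was mixed. Of 32 measured, 1 was higher and 2 were lower, beside 1.86% of all genes called, and the median was -0.00379. Myf6, a muscle-specific transcription factor of late differentiation, stood at 0.98, 1.02 and 0.96 in WTA and 0.20, 0.10 and 0.15 in WTD. Its cultures were close together in both lines and it was higher by 0.84 (SE 0.12, adjusted p = 0.0042). The inhibitor Id3, which keeps such factors from binding DNA, stood at -0.70, -0.72 and -1.06 in WTA and 0.28, 0.26 and 0.08 in WTD. WTA lay further from the reference than WTD, with a difference of -1.03 (SE 0.15, adjusted p = 0.00377). Mef2d, a partner of the myogenic factors, was lower by a difference of -0.90 (SE 0.18, adjusted p = 0.019), a call that did not pass without WTA culture 1, WTD culture 2 or WTD culture 3 (highest adjusted p = 0.0907). Nor did Mef2d pass without the arrays with many missing or limit values (adjusted p = 0.12). The determination factors Myod1 (0.03), Myf5 (0.02), Pax7 (0.14) and the differentiation factor Myog (-0.09), named here for their role after their values were seen, did not pass. After centring and scaling, Myf6 missed the threshold (adjusted p = 0.053), although its call was kept without any single culture.

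The next list holds genes that low oxygen induces, many of them glycolytic enzymes. Of 33 measured, 4 were higher in WTA and 0 lower, beside 1.86% of all genes called, the median difference was 0.27, and 26 of 33 were above 0. In single cultures the list's median was -0.61 to -0.31 in WTA and -0.71 to -0.67 in WTD. Beside Loxl2 and Bnip3, the list's members that passed were Adm and Pfkl. Adm encodes the vasodilator peptide adrenomedullin, and had ratios of -2.45, -2.23 and -1.70 in WTA and -3.39, -3.14 and -3.48 in WTD. All 6 cultures were far below the reference and the groups did not overlap, with a difference of 1.21 (SE 0.26, adjusted p = 0.0342). Pfkl, the liver form of phosphofructokinase, had -0.61, -0.59 and -0.11 in WTA and -1.54, -1.44 and -1.46 in WTD, a difference of 1.04 (SE 0.14, adjusted p = 0.002). The calls of Bnip3, Loxl2 and Pfkl were kept without any single culture, whereas that of Adm did not pass without WTA culture 3 or any 1 of the WTD cultures (highest adjusted p = 0.124). The median stayed above 0 with the arrays centred (0.37) and with them centred and scaled (0.65, with 7 genes higher and 0 lower). Hif1a, the oxygen-regulated transcription factor behind this programme, differed by less than 0.01 in size and did not pass. It is regulated mainly through the stability of its protein, which these arrays do not measure. Its inhibitor Hif1an, an asparagine hydroxylase on no list and named after its values were seen, differed by 1.06 (adjusted p = 0.0349).

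The promoters of Bnip3 and Adm are printed because these genes moved together and belong to a list whose members are known for the core letters ACGTG that hypoxia-inducible factors bind, and that of Tmod4 as the sarcomere gene with the largest difference, with the letters CANNTG that myogenic factors bind. Sequences run 5′ to 3′ on the gene's strand, from 250 bases before to 50 after the annotated start (RefSeq, GRCm38.p6), with matches on either strand in capitals. Bnip3 lies on the minus strand at chr7:138909457-138909756, Adm on the plus strand at chr7:110627407-110627706 and Tmod4 on the plus strand at chr3:95124264-95124563.
Bnip3: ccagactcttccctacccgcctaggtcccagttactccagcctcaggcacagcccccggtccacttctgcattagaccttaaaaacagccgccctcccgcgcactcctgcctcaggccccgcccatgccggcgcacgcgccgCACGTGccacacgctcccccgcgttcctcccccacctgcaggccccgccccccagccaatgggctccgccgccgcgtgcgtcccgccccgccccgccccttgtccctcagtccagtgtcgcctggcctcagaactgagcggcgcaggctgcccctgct
Adm: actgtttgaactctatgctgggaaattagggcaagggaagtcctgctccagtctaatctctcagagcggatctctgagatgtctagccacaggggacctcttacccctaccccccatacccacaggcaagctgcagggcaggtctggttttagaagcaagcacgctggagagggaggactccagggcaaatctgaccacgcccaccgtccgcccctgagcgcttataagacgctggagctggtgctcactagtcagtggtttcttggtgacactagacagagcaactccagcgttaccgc
Tmod4: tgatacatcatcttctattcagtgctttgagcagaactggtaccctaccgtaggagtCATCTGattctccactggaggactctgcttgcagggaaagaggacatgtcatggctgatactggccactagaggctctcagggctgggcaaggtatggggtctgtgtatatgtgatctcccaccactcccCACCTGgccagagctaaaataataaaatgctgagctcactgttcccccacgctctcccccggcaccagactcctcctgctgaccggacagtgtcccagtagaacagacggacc
The Bnip3 window held 2 matches to ACGTG, 1 on each strand, which overlap in the run CACGTG. The Adm window held 0 matches, which says only that these letters are not in this window. Of 32851 promoters of this length 6447 hold ACGTG (19.6%). The Tmod4 window held 2 matches to CANNTG, a sequence found in 23756 of the 32851 promoters (72.3%). A match is a description of the letters and not of binding.

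Of 17 genes of cholesterol synthesis, 2 were higher and 0 lower, beside 1.86% of all genes called. The list's median was 0.42, and 15 of 17 were above 0, as were 4252 of all 8107 genes. Without the arrays that had many missing or limit values the median was 0.23, with 1 gene higher. It was 0.53 with the arrays centred, with 2 higher, and 0.32 with them centred and scaled, with 1 higher. Mvd, which makes isopentenyl diphosphate, had 0.63, 0.38 and 0.52 in WTA and -0.23, -0.24 and -0.21 in WTD, a difference of 0.74 (SE 0.13, adjusted p = 0.00772). Fdft1, the squalene synthase, had 0.83, 0.86 and 0.82 and 0.08, 0.14 and 0.24, a difference of 0.68 (SE 0.11, adjusted p = 0.00772). Both had cultures that agreed closely within a line, and both kept their calls without any single culture. Mvd did not pass without the arrays that had many missing or limit values (adjusted p = 0.17), and Fdft1 not after centring and scaling (adjusted p = 0.098). Of 23 genes of fatty acid carriage and lipolysis, 4 were higher and 0 lower, with a median of 0.28, beside 1.86% of all genes called. The median was 0.09 and 2 were higher with the arrays centred and scaled, and 0 were higher with limit values kept, with a replicate block or with the filter on the compared lines. The 4 were the desaturase Scd2 (0.95, adjusted p = 0.046), the acyl-CoA synthetase Acsl4 (0.73, adjusted p = 0.0278), the fatty acid receptor Cd36 (0.69, adjusted p = 0.0298) and Fabp3. Cd36 was above the reference in every culture (1.52, 1.03 and 1.32 in WTA, 0.56, 0.54 and 0.69 in WTD), and Scd2 was spread more widely (0.27, -0.20 and 0.69 in WTA, -0.80, -0.81 and -0.48 in WTD). None of these 4 calls passed without WTA culture 1 or any 1 of the WTD cultures (highest adjusted p = 0.16), and the difference of Cd36 was 0.125 after centring and scaling (adjusted p = 0.768). Slc2a4 and Cd36 are also markers of adipocytes, and of 8 such markers measured 2 were higher and 0 lower, with Fabp4 at -0.36 and Lipe at -0.01. The median of the adipocyte markers was -0.12 to 0.26 in the WTA cultures and 0.06 to 0.19 in the WTD cultures, and their part in the lipid genes was not tested.

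**Figure D4:**
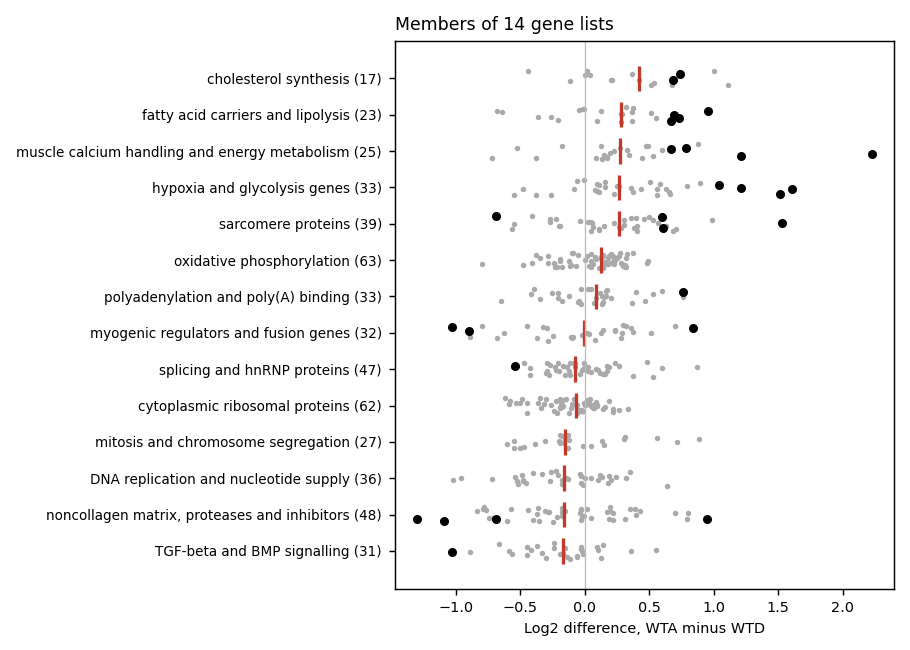
Log2 difference of WTA minus WTD (horizontal axis) for the measured members of 14 of the 37 gene lists, with the number measured in parentheses. Black points passed the threshold, grey points did not, and the red bar is the median. The medians run from 0.42 for cholesterol synthesis to -0.17 for TGF-beta and BMP signalling, and the ribosomal and replication lists have no black point.

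Of 48 noncollagen matrix proteins, proteases and inhibitors, 1 was higher and 3 were lower, beside 1.86% of all genes called. The median was -0.16 and turned to 0.03 when the arrays were centred and scaled. Ccn2, the connective tissue growth factor, stood at -1.23, -0.82 and -0.66 in WTA and 0.21, 0.29 and 0.67 in WTD, a difference of -1.30 (SE 0.22, adjusted p = 0.0125). Its relative Ccn1 differed by -0.69 (adjusted p = 0.0205). Timp1, an inhibitor of matrix metalloproteinases, stood at -1.46, -0.91 and -1.55 in WTA and -0.15, -0.28 and -0.21 in WTD, a difference of -1.09 (SE 0.16, adjusted p = 0.00317). For Ccn2 and Timp1 the low line was near the reference and the high line below it. Thbs2, a matrix thrombospondin, was below the reference in both lines and higher in WTA, at -1.16, -0.67 and -0.31 against -1.55, -1.73 and -1.70 (difference 0.95, adjusted p = 0.0187). Timp1 kept its call without any single culture but not after centring and scaling (adjusted p = 0.058), while Ccn2 lost it without WTA culture 1 or WTD culture 3 (highest adjusted p = 0.0657), Ccn1 without WTA culture 1, WTD culture 1 or WTD culture 2 (0.0989) and Thbs2 without WTD culture 2 or 3 (0.0842). Of 35 collagens and collagen-processing enzymes, 1 was higher (Loxl2) and 2 were lower, Col11a1 (-0.95, adjusted p = 0.0276) and Col18a1 (-0.76, adjusted p = 0.0184). The list's median was -0.06 and turned to 0.36 with the arrays centred and scaled, where Col11a1 took the opposite sign (0.36, adjusted p = 0.561) and Col18a1 differed by -0.02 (adjusted p = 0.982). Col11a1 and Col18a1 did not pass without WTA culture 1, WTD culture 1 or WTD culture 3, nor Col11a1 without WTD culture 2. Of 13 fibroblast markers, which share genes with these lists, 1 passed as higher, Dpt, and 0 as lower. The fibroblast genes Col1a1 (-0.01), Col1a2 (0.01) and Col3a1 (0.04) lay near 0. The median of these markers was -0.81 to -0.28 in the WTA cultures and -0.95 to -0.25 in the WTD cultures, and their part in the matrix genes was not tested.

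Of 31 genes of TGF-beta and BMP signalling, 1 was lower, Id3, a direct target of BMP receptors, and 0 were higher, beside 1.86% of all genes called. Only 6 of the 31 were above 0 and the median was -0.17, which was -0.04 with the arrays centred and scaled. Of 40 genes of Wnt and Notch signalling, 3 were lower and 0 higher, with a median of -0.02 that was 0.04 with the arrays centred, and with 1 higher and 2 lower when they were also scaled. Wnt4, a secreted Wnt ligand, stood at -0.77, -0.70 and -0.82 in WTA and 0.15, 0.03 and 0.30 in WTD, a difference of -0.92 (SE 0.14, adjusted p = 0.00481). The groups were well apart and the call was kept without any single culture. Heyl, a transcriptional repressor downstream of Notch, stood at -1.73, -0.85 and -1.47 and -0.17, -0.07 and 0.25, a difference of -1.35 (SE 0.24, adjusted p = 0.0125), which did not pass without WTA culture 1 or WTD culture 3 (highest adjusted p = 0.0683). The ligand Wnt10a was measured in 2 WTA cultures, at -1.41 and -0.76, and in the 3 WTD cultures, at 0.75, 0.78 and 1.47, a difference of -2.09 (SE 0.32, adjusted p = 0.00602). Of 11 genes of insulin-like growth factor signalling 0 passed (limma), and the adaptor Grb10 came nearest (0.79, adjusted p = 0.0533), beside Igfbp6 (-1.38, adjusted p = 0.307).

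The cell cycle lists held few calls, where 1.86% of all genes were called. Of 22 genes of cell cycle exit, Cdkn1c was lower in WTA and Cdkn2c, the inhibitor p18, was higher, at 0.89, 1.01 and 1.02 in WTA and 0.12, 0.08 and 0.27 in WTD (difference 0.81 (SE 0.12, adjusted p = 0.00392)). These inhibitors of cyclin-dependent kinases thus moved in opposite directions, and both kept their calls without any single culture, though Cdkn2c missed the threshold with centred and scaled arrays (adjusted p = 0.076). Rb1, the retinoblastoma protein, differed by 0.36 and Cdkn1a, the inhibitor p21, by -0.10, and neither passed. Of 36 genes of DNA replication 0 passed (limma), with a median of -0.16 that was 0.05 with the arrays centred and scaled. The largest differences were those of the ligase Lig1 (-1.02, adjusted p = 0.141) and the helicase subunit Mcm4 (-0.96, adjusted p = 0.106). Of 27 genes of mitosis 0 passed, with a median of -0.16 that was 0.09 when scaled, and Smc2 (0.88, adjusted p = 0.669; second probe -0.25) and Ect2 (-0.60, adjusted p = 0.428) were furthest from 0. Among 22 imprinted genes, 2 were lower, Cdkn1c and Zim1 (-0.84, adjusted p = 0.0227), and 0 higher. The Zim1 call did not pass without WTA culture 1 or any 1 of the WTD cultures (highest adjusted p = 0.0961).

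Among genes that act with Pabpn1 on poly(A) tails, no other call was made. Of 33 genes of polyadenylation, poly(A) binding and deadenylation, Pabpn1 was the only one that passed, beside 1.86% of all genes called. The list's median was 0.09. The poly(A) polymerase Papola differed by 0.36, the cytoplasmic binding proteins Pabpc1 and Pabpc4 by -0.21 and 0.40, the cleavage factors Cpsf1 and Nudt21 by -0.05 and -0.12, the deadenylase Cnot7 by 0.60 and Zc3h14, another nuclear poly(A)-binding protein, by 0.76. These 7 genes are given for their role and did not pass. Of 47 splicing and hnRNP proteins, 0 were higher and 1 was lower, with a median of -0.07 that was 0.04 with the arrays centred. That 1 was Ptbp2, a splicing regulator best known from neurons, at -0.23, -0.40 and -0.17 in WTA and 0.18, 0.43 and 0.21 in WTD (difference -0.54 (SE 0.11, adjusted p = 0.0377)). Its call was lost without any culture other than WTA culture 3 (highest adjusted p = 0.149), and its second probe differed by -0.40 (adjusted p = 0.78).

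The next lists stand beside 1.86% of all genes called. Of 40 genes of endoplasmic reticulum stress, 2 were higher (Gpx7 and the lipoprotein receptor Vldlr, 0.54, adjusted p = 0.0457) and 1 was lower, the stress transcription factor Atf5, at -0.80, -0.63 and -0.82 in WTA and -0.01, 0.05 and 0.00 in WTD (difference -0.76 (SE 0.11, adjusted p = 0.00392)). Of 30 antioxidant genes, 3 were higher (Gpx7, the glucose-responsive arrestin Arrdc4 with 1.19, and the secreted peroxidase Gpx3 with 0.47) and 1 was lower, the extracellular superoxide dismutase Sod3 (-1.18, adjusted p = 0.037). Arrdc4 had -1.81, -1.32 and -1.25 in WTA and -2.13, -2.94 and -2.86 in WTD. Of 38 genes of the interferon response, 0 were higher and 1 was lower, the ubiquitin-like modifier Isg15, at -1.67, -1.74 and -1.99 in WTA and -0.59, -0.55 and -0.70 in WTD. It was below the reference in both lines, further in WTA, by a difference of -1.18 (SE 0.14, adjusted p = 0.00107) that missed the threshold with centred and scaled arrays (adjusted p = 0.25). Of 37 genes of apoptosis and the p53 pathway, 2 were higher, the translation inhibitor Pdcd4 (1.27 (SE 0.21, adjusted p = 0.00835)) and the death receptor Fas (0.55, adjusted p = 0.0256), and 1 was lower, the BH3-only protein Pmaip1 (-0.75, adjusted p = 0.019). Pdcd4 stood at 1.90, 0.95 and 1.72 in WTA and 0.32, 0.15 and 0.31 in WTD. Of these genes Gpx7, Atf5, Isg15 and Pdcd4 kept their calls without any single culture, and Vldlr, Arrdc4, Gpx3, Sod3, Fas and Pmaip1 each lost theirs without at least 3 of the 6 (highest adjusted p = 0.168). Atf5 (adjusted p = 0.0705) and Sod3 (adjusted p = 0.724) also missed the threshold with centred and scaled arrays. Arrdc4 did not pass without the arrays with many missing or limit values (adjusted p = 0.14).

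Of 36 proteasome genes, 1 was lower, the core subunit Psma1 (-0.45, adjusted p = 0.0333), beside 1.86% of all genes called. The Psma1 call was lost when any 1 culture other than WTA culture 2 was left out (highest adjusted p = 0.133). Of 43 chaperones, 41 genes of lysosome and autophagy, 62 cytoplasmic ribosomal proteins, 63 genes of oxidative phosphorylation and 8 caveolar genes, 0 passed in limma. The ribosomal genes lay between -0.62 and 0.34 and the respiratory genes between -0.79 and 0.49. The endothelial (5 measured), leukocyte (2), neural (6) and bone (3) marker lists also held 0 calls, and of 8 smooth muscle markers 1 was lower in WTA, the smooth muscle actin Acta2 (-0.20, -0.10 and 0.04 in WTA, 0.52, 1.04 and 0.74 in WTD; difference -0.85 (SE 0.19, adjusted p = 0.0377)), while Tagln (0.47) and Cnn1 (-0.38) did not pass. The Acta2 call did not pass without WTA culture 1, WTA culture 2, WTD culture 2 or WTD culture 3 (highest adjusted p = 0.152), nor with the arrays centred (adjusted p = 0.072). Without the arrays with many missing or limit values it did not pass either (adjusted p = 0.143).

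The mutant lines D7E and D7F give a second pair with a high and a low level, and share no culture with WTA and WTD, though all were set against the same reference. Between D7E and D7F, 22 of 9706 probes passed (0.227%). Pabpn1 itself had the same direction in both pairs, 1.61 in D7E against 0.92 in D7F, a difference of 0.69 (adjusted p = 0.097), and the difference between the pairs was 0.07 (adjusted p = 0.926). The genes that separated WTA from WTD mostly did not go with it. Of the 172 probes, 54 had the same sign in the mutant pair and 118 the opposite sign, so that 31.4% had the same sign, against 44.7% of all 9706 probes. Over all probes the differences of both pairs correlated with r = -0.142. Of the 172, 16 also passed between D7E and D7F, 5 in the same direction and 11 in the opposite one.

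The difference between the pairs, tested as (WTA minus WTD) minus (D7E minus D7F), passed for 230 of 9706 probes (2.37%), 148 above 0 and 82 below. Of the 172 probes 106 were among them, and 100 of these had opposite signs in the pairs, as had 223 of all 230. Since these 172 were chosen by a difference that is part of this test, that count is a description. Cdkn1c was lower in WTA than in WTD but had 1.06 in D7E and -0.32 in D7F, so its difference in the mutant pair was 1.38 and that between the pairs -3.13 (adjusted p = 1.24e-05). Pvalb likewise turned, at -0.62 in D7E and 0.58 in D7F, with a difference between the pairs of 3.42 (adjusted p = 1.32e-05). Scn10a and Kcnmb4 were higher in D7E than in D7F, by 1.89 and 1.61, while both were lower in WTA. Gpx7 differed little between the mutant lines (0.11). Loxl2 had the same direction in both pairs, 1.60 and 1.92, with a difference between them of -0.32 (adjusted p = 0.8). Vamp3 did too, with 1.95 and 1.30 (difference 0.65, adjusted p = 0.673).

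The medians of the gene lists had opposite signs in the pairs for 19 of the 37 lists and the same sign for 18, with no test of these differences. Sarcomere genes had a median difference of 0.26 between WTA and WTD and -0.04 between D7E and D7F, muscle calcium and energy genes 0.28 and -0.08, hypoxia genes 0.27 and -0.31 and cholesterol synthesis genes 0.42 and -0.09. The fatty acid genes were above 0 in both pairs, at 0.28 and 0.12, and the mitosis genes (-0.16 and -0.13) and noncollagen matrix genes (-0.16 and -0.05) were below 0 in both. Over all genes the medians were 0.02 and -0.03.

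**Figure D5:**
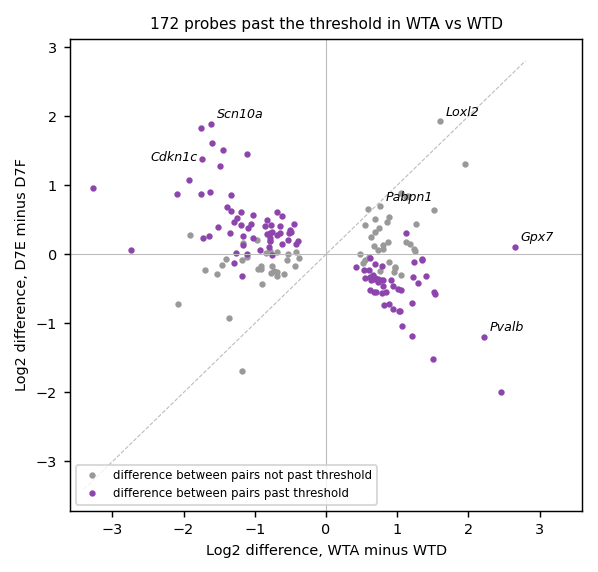
Log2 difference of D7E minus D7F (vertical axis) against that of WTA minus WTD (horizontal axis) for the 172 probes that passed between WTA and WTD. Purple points are the 106 whose difference between the pairs passed, the dashed line marks equal differences, and 118 points lie in the quadrants of opposite sign.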

How the data were processed

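Total RNA of 5 mouse cell lines was measured on spotted 2-colour arrays, per the labels. The authors deposited log ratios of one channel over the other, read here as log10 because they stop at -2 and 2 with no unit stated, and multiplied by 3.3219 to give log2 ratios. Sizes and folds hold only in that case. How the arrays were scanned, background-corrected and normalised is "not given in the sources used here". Ratios were read as culture over reference because Pabpn1 was positive on every WTA and WTD array of part I. Part II has no such marker. For WTA culture 3 on part I, the dye differs between titles and channel sources, and the latter were followed. Values at a limit (6.09% of those filled on part I and 8.82% on part II in these lines) were dropped.

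Rows with identical values were collapsed, control probes left out and probes named through the platform annotation, with symbols updated from RefSeq (GRCm38.p6, names only). A culture counted where both dyes were measured, and a probe where at least 2 cultures of every line counted. Each part was fitted with limma (version 3.58.1, R 4.3.3; lmFit and eBayes), all 5 lines in 1 model, with Benjamini-Hochberg adjustment over both parts. The code was tested on simulated data. Named were Pabpn1, the 12 largest differences in each direction among probes that passed, with all 6 cultures measured and no overlap, and up to 4 members of each of 37 gene lists that passed, or 2 that did not where none passed. Lists and rules were chosen with earlier results of these data known. A gene with several probes counts in a list through the one measured in most cultures. Alternatives varied the limits, scaling, lines, dyes, filters, poor arrays and replicates.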

Additional observations from a re-analysis of the deposited data

Results flagged for a closer look

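The difference between WTA and WTD differed from that between D7E and D7F by a test of the difference itself for 230 of 9706 probes (limma with Benjamini-Hochberg adjustment). Among the 93 probes of named genes 46 passed this test (adjusted p = 1.24e-05 to 0.0474), and their values below are (WTA minus WTD) minus (D7E minus D7F) on the log2 scale. In 43 of the 46 the pairs had opposite signs, as in 223 of all 230 probes that passed. Opposite signs enlarge the difference tested, so this share is no result of the named genes. It goes by the sign of the difference alone, and only 22 of 9706 probes passed between D7E and D7F. Some genes below passed there, with D7E minus D7F differences such as -1.19 (Pvalb), -1.52 (Ces2g), 1.38 (Cdkn1c) and 1.89 (Scn10a). Others differed little there and did not pass, such as Cmya5 (-0.06), Fbxo5 (-0.08), Xlr (0.24) and Ptbp2 (0.21). The 21 genes that were higher in WTA than in WTD and lower in D7E than in D7F were Pvalb (3.42), Ces2g (3.02), Adm (2.40), Tmod4 (2.10), Bnip3 (2.06), Pgm1 (1.91), Pfkl (1.85), Thbs2 (1.73), Dpt (1.71), Gem (1.70), Grb10 (1.58), Cdkn2c (1.55), Fbxo5 (1.43), Cmya5 (1.42), Myf6 (1.39), Slc2a4 (1.34), Mvd (1.10), Fabp3 (1.03), Fdft1 (1.03), Fas (0.89) and Myoz1 (0.83). Calcium, glucose and lipid genes of muscle are among them, as are the hypoxia genes Adm, Bnip3 and Pfkl. The 22 genes with the reverse pattern were 3830403N18Rik (-4.24), Scn10a (-3.50), Kcnmb4 (-3.22), Cdkn1c (-3.13), Padi2 (-2.99), Tcstv1 (-2.97), Prr32 (-2.77), Tac4 (-2.63), Neat1 (-2.53), Xlr (-1.97), Pacsin1 (-1.91), Ccn2 (-1.77), Heyl (-1.67), Id3 (-1.61), Timp1 (-1.48), Csrp3 (-1.29), Acta2 (-1.26), Zim1 (-1.12), Pmaip1 (-1.08), Wnt4 (-0.99), Psma1 (-0.89) and Ptbp2 (-0.75). Channel genes, secreted regulators and the cell cycle inhibitor Cdkn1c are in this second group. The other 3 had the same sign in both pairs with different sizes: Gpx7 (2.55), Isg15 (-0.86) and Atf5 (-0.75). All but Grb10 had passed between WTA and WTD, and were named for that difference, which is part of this test.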

How the results depend on the processing

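Against 172 probes that passed between WTA and WTD, 79 passed with limit values kept, 5 with only these lines fitted, 73 on Cy3 and 41 on Cy5 arrays alone, 79 when 1 dye orientation was enough, and 300 when all 3 cultures of every line were required. Leaving out 1 culture gave 84 to 258. The 172 kept their sign wherever tested, except 2 with the arrays centred and scaled. The test of the difference between the pairs passed for 230 probes, and for 79 with limits kept, 134 without IM2, 49 on Cy3, 37 on Cy5, 66 with 1 orientation, 107 without the poor arrays, 437 with all cultures required, 136 with the filter on the compared lines, and 91 to 284 with 1 culture left out. Deviations of same-numbered WTA and WTD cultures from their line means correlated with r = 0.0579, 0.141 and 0.102. For differently numbered cultures r was -0.129 to 0.0219. The labels do not say whether a culture number marks a shared day, and this was not tested. With the number as a replicate block 128 probes passed between WTA and WTD and 136 between the pairs.

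Pabpn1 in WTA against WTD (0.76) was -0.29 after centring and scaling, and missed the threshold with fewer lines (0.76), on Cy3 (0.60) or Cy5 arrays alone (0.92) and with 1 orientation (0.76). It ranged from 0.62 to 0.91 with 1 culture left out. Col11a1 reversed to 0.36 with the arrays centred and scaled. The causes were not tested. Of 628 list medians under the alternatives, 541 moved by less than the spread between cultures and 87 by more. Few arrays and values at the limits bound the precision.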

Other observations

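Some genes on none of the 37 lists passed between WTA and WTD and are named here after their values were seen, with no further test. Among those higher in WTA were Abhd5, the co-activator of triglyceride lipase, by 1.12 (adjusted p = 0.000374, limma with Benjamini-Hochberg adjustment), Fitm1, which helps form lipid droplets in muscle, by 1.03 (adjusted p = 0.0186) and Mttp, which loads lipid onto lipoproteins, by 0.91 (adjusted p = 0.00179). Abhd5 stood at 0.40, 0.41 and 0.19 in the WTA cultures and at -0.81, -0.71 and -0.82 in the WTD cultures, with the lines on either side of the reference. Among those lower in WTA were Myl9, a regulatory light chain of smooth muscle and nonmuscle myosin, by a difference of -1.11 (adjusted p = 0.00387) and the crosslinker Actn4 by -0.62 (adjusted p = 0.0216; second probe -0.38). Dcx, the microtubule-binding protein doublecortin, stood at -0.22, 0.01 and -0.09 in WTA and at 1.27, 1.04 and 1.39 in WTD (difference -1.33, adjusted p = 0.000841).

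The cytokine gene Mif (1.02, adjusted p = 0.00139) and the copy Mif-ps1 (1.22, adjusted p = 0.00499) were both higher in WTA, and near-identical copies like these may share signal. Gpr137b-ps, a pseudogene measured in only 2 WTA cultures, was higher by 2.46 (adjusted p = 0.0377).

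Of 21 germ-line and early embryo genes 0 were higher and 1 lower (Tcstv1), and of 22 potassium and calcium channel genes 0 were higher and 1 lower (Kcnmb4). These counts stand beside 1.86% of all genes called. Over 156 genes measured on both array parts, with 1 probe per part, the differences of the parts correlated with r = 0.178.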
